A study of Mus musculus with 2 samples.

Results

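Homologous recombination and the Fanconi anaemia pathway repair broken and crosslinked DNA in dividing cells. The gene group described here lists 33 genes of these pathways, and 31 of them were measured, among 18193 genes on the array. Xrcc2 and Rbbp8 were not analysed here. Each gene is represented by 1 probe set, the one with the highest mean of its 2 array values among the sets that the platform annotation assigns to that gene alone. Genes were called expressed if this mean was at least 6.71 on the log2 scale, which is the median over the probe sets other than controls. This held for 28 members and for 10717 genes in all. Just above this level lay Brip1 (mean 6.99), Eme1 (7.11) and Xrcc3 (7.15), and below it lay Rad51b (6.58), Bard1 (5.78) and Rad54b (5.40). Because the members, their probe sets and their differences come from the same arrays, all values below are descriptions.

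In homologous recombination the MRE11-RAD50-NBS1 complex senses a broken end and starts its resection, BRCA1, PALB2 and BRCA2 prepare the single strand for strand exchange, and further partners such as RAD54 help it to invade the sister chromatid. In the Fanconi anaemia pathway a core complex attaches ubiquitin to FANCI and FANCD2 at stalled forks, with UBE2T as the conjugating enzyme. Both pathways act mainly in S and G2 phase, and activated B cells, which divide fast and cut their own DNA during class switching, depend on them. BRCA1 has also been reported to repress the miR-155 gene in human cells.

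The study set B cells of miR-155 knockout mice, cultured and activated, against B cells of wild-type mice. It holds 1 array labelled mir155 KO and 1 labelled mir155 WT, called the KO-labelled and the WT-labelled array here. Both samples are described as C57 and from male mice, and both were exposed to the translation inhibitor cycloheximide, at 100 ug/ml and over the last 8 min of culture. The growth protocol instead describes a 6-day culture of progenitors with G-CSF and SCF, whereas the other entries name B cells. No label gives the allele, the activating agent, the age of the mice or the number of animals behind an array. The microRNA is shown because the labels turn on it. The mature miR-155-5p, at chr16:84714143-84714165 on the plus strand (GRCm38.p6, RefSeq), has its seed, bases 2 to 8, in capitals.
miR-155-5p: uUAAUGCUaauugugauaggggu

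The genotype labels contradicted each other, and the targeted gene went against those used here. Titles and genotype entries named the arrays as above, and the source names gave the opposite genotype for both. Mir155hg, the host transcript of miR-155, had a log2 level of 10.88 on the KO-labelled array, against 6.63 on the WT-labelled array. Whether its single probe set lies in the deleted part was not determined here. Every difference is KO-labelled minus WT-labelled, in log2 units, and would take the opposite sign if the source names are right. With 1 array per label there is no replicate check and no test. Over all expressed genes the difference had an SD of 0.19 and a median of 0.03. For 4906 genes read by 2 or more expressed probe sets, the differences from the 2 brightest sets were 0.08 apart in the median gene. The 95th percentile of this gap was 0.31 over these genes, and 0.44 over the 13 members concerned. The gap is technical and says nothing about the spread between animals or cultures. All 16 measured B cell markers reached the median of each array, and 3 of 13 markers of neutrophils and their precursors did. So did 6 of 8 T cell markers, 4 of 8 dendritic cell markers, 3 of 5 natural killer and 3 of 7 progenitor markers. Of 11 macrophage and monocyte markers 7 did on the KO-labelled array and 8 on the WT-labelled array, and of 3 erythroid markers 0 did. The dendritic cell and progenitor lists share a marker. Over the measured B cell markers the mean log2 level was 11.35 on the KO-labelled array and 11.15 on the WT-labelled array. Dendritic cell markers came next, at 7.79 and 7.92, and the other marker lists had lower means. Which culture was used was not determined here. The 3′ minus 5′ signal of the control transcripts was 0.23 on the KO-labelled array, against 0.22 on the WT-labelled array for β-actin, and -0.07 on each for Gapdh.

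Most members were somewhat higher on the KO-labelled array, and 8 of them differed by 0.25 or more. Of the 28 expressed members 21 were higher, a share of 75%, where 56.9% of all expressed genes were higher. The remaining 7 were lower, where 42.1% of all expressed genes were. The median difference was 0.16, against 0.03 over all expressed genes. A difference of at least 0.25, or 1.19-fold, was reached upward by 8 members, where 7.6% of expressed genes reached it, and downward by 0 members, where 6.4% did. The 8 were Fancb, Rad51ap1, Brip1, Palb2, Ube2t, Fancd2, Rad54l and Brca1, in descending order. They ran from 0.36 for Brca1 to 0.67 for Fancb, and for both of these genes other probe sets read much less. Only Fancb, Rad51ap1 and Brip1 reached 0.5 (1.41-fold), a size reached upward by 0.681% of expressed genes. No member reached it downward, where 1.31% did. The 20 other expressed members lay between -0.14 and 0.23.

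**Figure D1:**
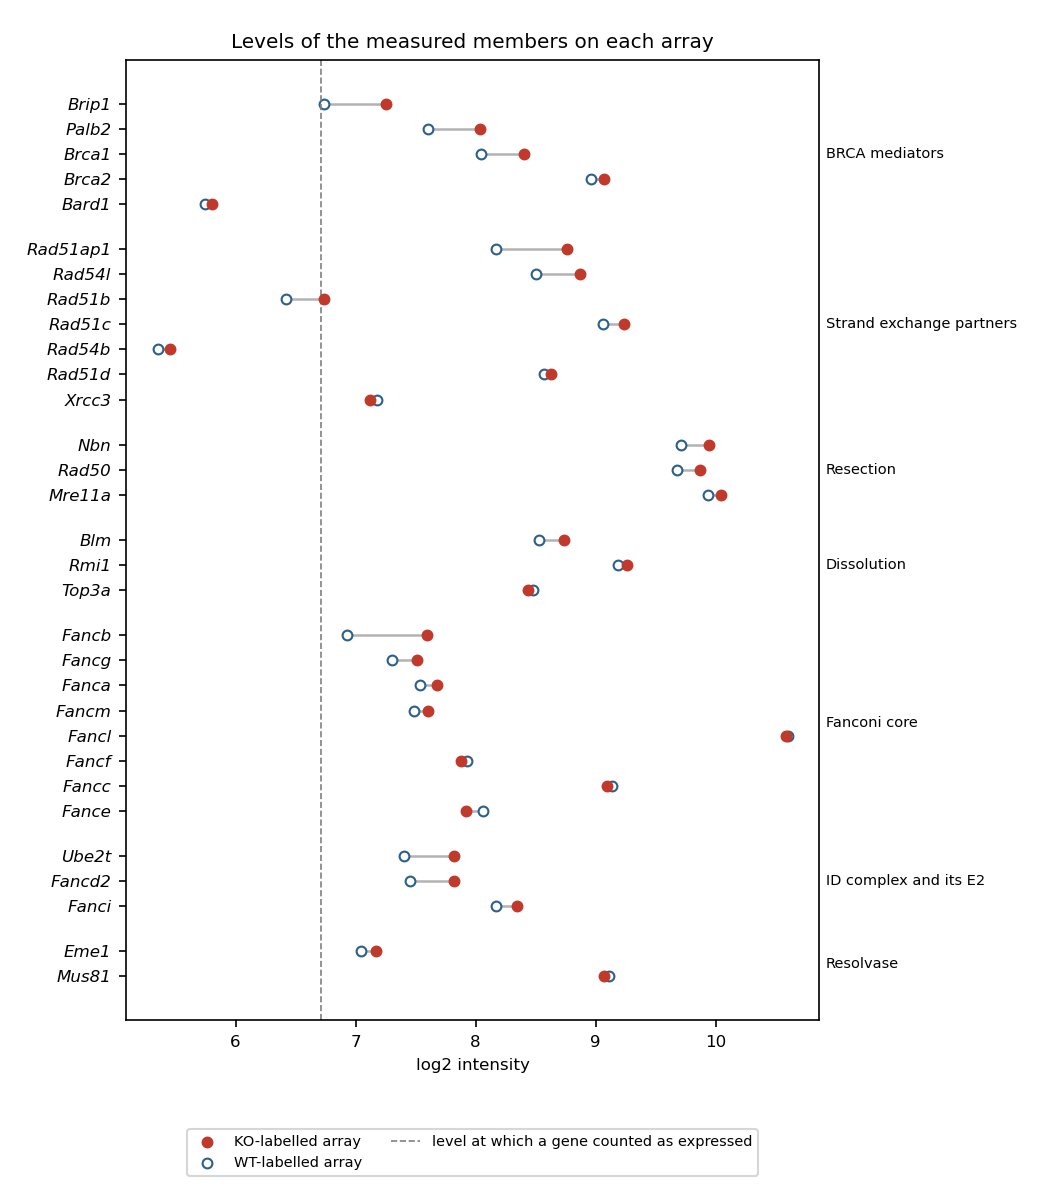
Log2 intensity of the 31 measured members on the KO-labelled array (filled red) and the WT-labelled array (open blue), grouped by role, with the level for expression dashed. Red lies to the right of blue for most genes, by 0.67 at most for Fancb, and to the left by 0.14 at most for Fance.

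The sequence around the start of transcription is shown for the 3 members that differed most, since all were higher. RefSeq windows of 300 bases (250 before to 50 after the annotated start, GRCm38.p6) were given for 25 of the 31 measured members. Capitals mark CCAAT, or ATTGG where it reads on the opposite strand, a sequence bound by NF-Y that is frequent in promoters of cell cycle genes. The windows lie at chrX:164980342-164980641 on the plus strand for Fancb, at chr6:126939538-126939837 on the minus strand for Rad51ap1 and at chr11:86201144-86201443 on the minus strand for Brip1. They were chosen after their values were seen.
Fancb: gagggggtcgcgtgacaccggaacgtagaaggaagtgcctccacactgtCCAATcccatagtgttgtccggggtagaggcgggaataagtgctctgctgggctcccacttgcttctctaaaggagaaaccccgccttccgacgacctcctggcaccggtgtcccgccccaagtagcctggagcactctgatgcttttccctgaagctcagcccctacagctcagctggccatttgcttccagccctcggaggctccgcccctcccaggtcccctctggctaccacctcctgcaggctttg
Rad51ap1: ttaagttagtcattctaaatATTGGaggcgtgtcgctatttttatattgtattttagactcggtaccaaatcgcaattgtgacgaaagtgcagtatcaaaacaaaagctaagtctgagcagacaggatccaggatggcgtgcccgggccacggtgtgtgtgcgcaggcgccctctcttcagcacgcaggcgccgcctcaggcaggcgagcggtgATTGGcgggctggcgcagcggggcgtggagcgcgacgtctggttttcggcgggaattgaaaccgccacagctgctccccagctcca
Brip1: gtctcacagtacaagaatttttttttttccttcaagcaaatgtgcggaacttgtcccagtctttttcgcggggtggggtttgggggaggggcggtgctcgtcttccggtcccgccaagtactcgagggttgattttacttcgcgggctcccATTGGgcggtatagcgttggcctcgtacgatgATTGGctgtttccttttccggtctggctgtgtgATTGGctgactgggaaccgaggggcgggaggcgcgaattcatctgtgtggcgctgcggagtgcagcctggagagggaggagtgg

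Rad51ap1 held the CCAAT sequence at 36 and 230 bases before the start, Brip1 at 34, 67 and 99 bases before it, and Fancb once, 201 bases before it. A CCAAT on either strand was found in 16 of 23 expressed members with a window, or 69.6%. The share was 43.1% of 8684 expressed genes with a window and 41.1% of all 27025 genes with one. A gene counted if any of its windows held the sequence. All 7 members with a window that were higher by 0.25 or more held it, and so did 335 of the 661 expressed genes of that size, or 50.7%. The lower members Fance, Fancf, Fancc and Xrcc3 held it too, so the sequence did not separate higher from lower members. The median difference was 0.18 over the 16 members with CCAAT and 0.13 over the 7 without. Among expressed genes with a window, the share was 53.2% in other pathway genes (25 of 47) and 65.4% in replication genes (17 of 26). It was 77.8% in mitotic genes (14 of 18), 58.3% in nucleotide excision genes (7 of 12) and 80% in base excision genes (8 of 10). Any part of the sequence in the differences was not tested.

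Sites like those of E2F, the S phase transcription factor, were sought as TTTCCCGC, TTTCGCGC, TTTGCCGC or TTTGGCGC on either strand. They were found in 4 of the 23 expressed members with a window, or 17.4%. The share was 4.89% of expressed genes with a window and 2.6% of all genes with one. The holders were Brca2, Fancg, Rad51c and Rmi1, all among the members that differed by under 0.25. The CHR element of G2/M genes, TTTGAA or TTCGAA on either strand, was in 1 of the 23 members with a window, or 4.35%. It was in 16.1% of expressed genes with a window and 21.7% of all genes with one. Windows of Fancg (chr4:43010252-43010551, minus strand), Rad51c (chr11:87404457-87404756, minus strand) and Eme1 (chr11:94653694-94653993, minus strand) are shown as the expressed holders of either motif with the largest differences, with the motif in capitals. The motif is E2F-like in Fancg and Rad51c, and in Eme1 it is TTTGAA read on the opposite strand. Below the level for expression, Rad51b and Bard1 also held a CHR element, and Bard1 an E2F-like site as well.
Fancg: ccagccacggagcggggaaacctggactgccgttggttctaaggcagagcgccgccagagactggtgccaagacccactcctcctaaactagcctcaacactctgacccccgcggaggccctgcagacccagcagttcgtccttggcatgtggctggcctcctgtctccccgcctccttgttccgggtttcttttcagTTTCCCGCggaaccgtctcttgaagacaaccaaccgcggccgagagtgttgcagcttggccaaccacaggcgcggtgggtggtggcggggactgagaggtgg
Rad51c: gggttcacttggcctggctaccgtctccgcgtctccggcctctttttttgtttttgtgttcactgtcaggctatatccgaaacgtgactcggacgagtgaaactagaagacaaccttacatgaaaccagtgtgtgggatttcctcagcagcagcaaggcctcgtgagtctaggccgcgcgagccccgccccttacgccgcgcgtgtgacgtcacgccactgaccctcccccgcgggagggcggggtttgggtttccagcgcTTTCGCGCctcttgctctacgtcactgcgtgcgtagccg
Eme1: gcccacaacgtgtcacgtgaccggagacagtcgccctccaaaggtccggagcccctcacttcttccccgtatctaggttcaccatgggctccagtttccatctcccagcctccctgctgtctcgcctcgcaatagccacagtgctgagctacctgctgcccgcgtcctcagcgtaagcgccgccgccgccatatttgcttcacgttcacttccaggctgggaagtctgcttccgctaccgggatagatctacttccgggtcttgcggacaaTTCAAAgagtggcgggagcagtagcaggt

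In Fancg the site began 52 bases before the start, and in Rad51c at base 12 of the transcribed part. For comparison, 12 of 26 expressed replication genes with a window held an E2F-like site, and 14 of 18 mitotic genes held a CHR element. A match of letters is a description and does not show that a factor binds there.

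The BRCA mediators had a median difference of 0.40, and all 4 expressed ones were higher. With the mean of the probe sets their median was 0.27, and with only bright genes, where Brca2 alone was left, it was 0.10. Brip1 encodes the BACH1/FANCJ helicase that binds BRCA1, and is unrelated to the transcription factor gene Bach1. It (1458427_at) had a level of 7.25 on the KO-labelled array, against 6.74 on the WT-labelled array, a difference of 0.52. The lower of these is just above the level for expression. Palb2 (1434808_at), the partner that joins BRCA1 to BRCA2, had 8.03 on the KO-labelled array, against 7.60 on the WT-labelled array, a difference of 0.43. Each of these genes was read by 1 probe set. Brca1 (1424629_at), the ubiquitin ligase subunit that favours resection, had 8.41 on the KO-labelled array, against 8.05 on the WT-labelled array, a difference of 0.36. Its other expressed probe sets differed by 0.14 and -0.21, so the direction of Brca1 depended on the probe set, and the mean over all its sets was 0.03. Brca2, the central mediator of strand exchange, differed less, with 9.07 on the KO-labelled array, against 8.96 on the WT-labelled array. Bard1, the partner of BRCA1 in the ligase, was below the level for expression on each array (5.81 KO-labelled, 5.75 WT-labelled).

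The strand exchange partners had a median difference of 0.18, and 4 of the 5 expressed ones were higher. Rad51ap1 (1417938_at), which helps homologous strands to pair, had 8.76 on the KO-labelled array, against 8.17 on the WT-labelled array, or 1.50-fold. All 4 of its probe sets were expressed and all were higher, by 0.11 to 0.59. Rad54l (1450862_at), the motor protein RAD54, had 8.87 on the KO-labelled array, against 8.51 on the WT-labelled array, a difference of 0.36, and its 3 sets below the level for expression were higher as well. Thus Rad51ap1 and Rad54l carried the larger values of the group, and the other expressed genes differed less. Rad51c, a subunit of the BCDX2 and CX3 complexes, differed by 0.18 (9.24 KO-labelled, 9.06 WT-labelled) with 1 set and by 0.39 with the other. Rad51d, its partner in BCDX2, differed by 0.06, and its 3 expressed sets ran from -0.08 to 0.16. Xrcc3, whose product pairs with that of Rad51c, had 7.12 on the KO-labelled array, against 7.18 on the WT-labelled array. It was the only lower one of the 5, and the mean of its sets was higher (0.035). Below the level for expression, Rad51b differed by 0.32 and Rad54b by 0.11.

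All 3 measured resection genes were higher by small amounts, with a median of 0.19. Nbn, the sensor subunit NBS1, had 9.94 on the KO-labelled array, against 9.71 on the WT-labelled array, a difference of 0.23. Rad50, the ATPase that tethers ends, had 9.87 on the KO-labelled array, against 9.68 on the WT-labelled array. Mre11a, the nuclease, had 10.05 on the KO-labelled array, against 9.94 on the WT-labelled array. All 3 were under 0.25.

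Genes that dissolve or cut joined chromatids were mixed. The helicase gene Blm was higher, with 8.74 on the KO-labelled array, against 8.53 on the WT-labelled array. Its partners in the dissolvasome differed less, Rmi1 by 0.08 (its other expressed sets ran from just below 0 to 0.18) and the topoisomerase gene Top3a by -0.04. Of the structure-specific nuclease, the catalytic subunit Mus81 differed by -0.05 and -0.13 with its 2 sets, while its partner Eme1 differed by 0.13 (7.17 KO-labelled, 7.04 WT-labelled).

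**Figure D2:**
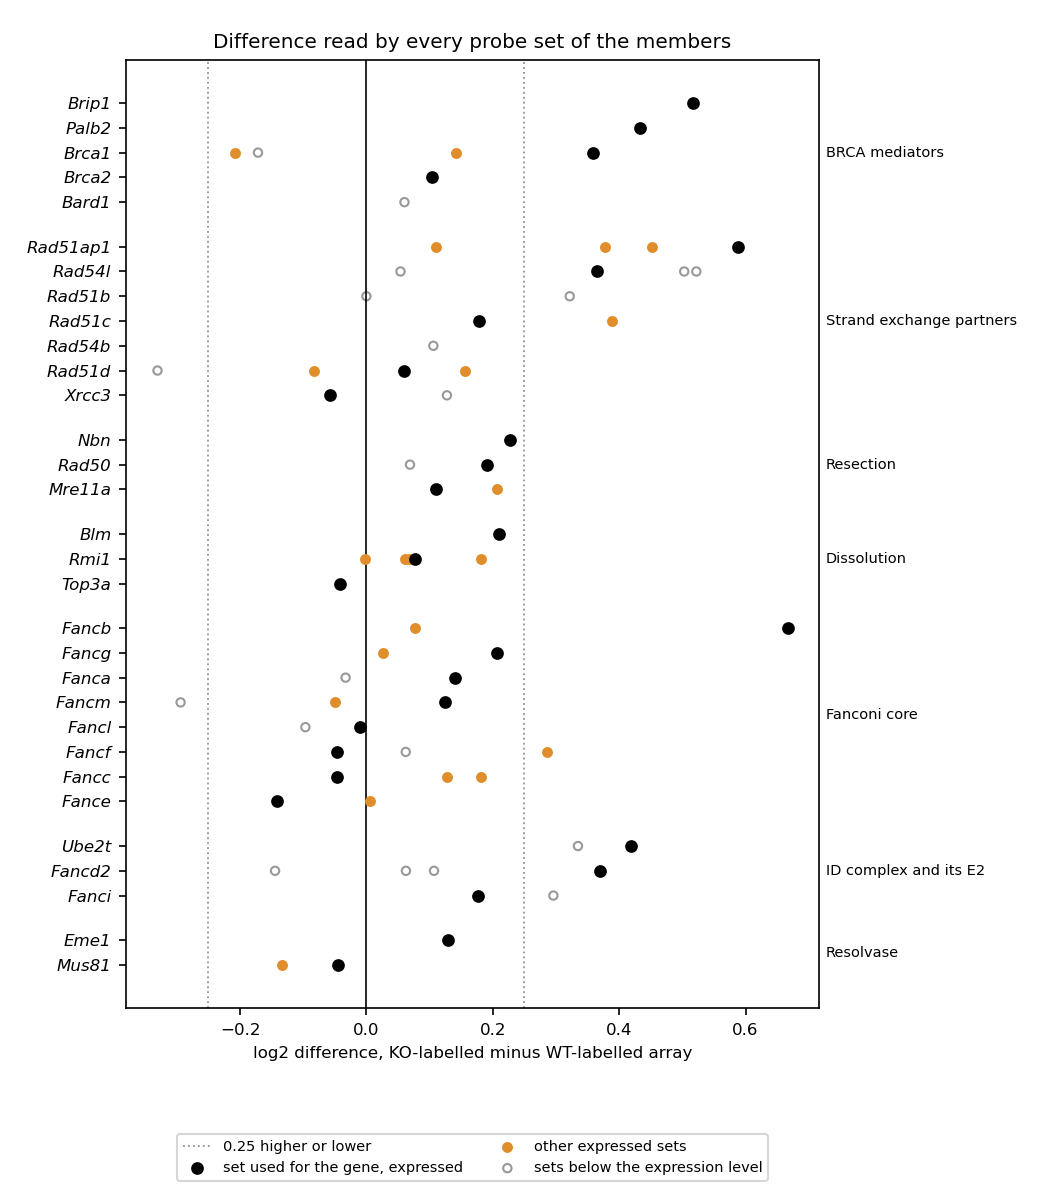
Log2 difference of each of the 69 probe sets of the 31 members: black for the set used, orange for other expressed sets, open grey for sets below the level for expression, dotted lines at 0.25. All 4 sets of Rad51ap1 lie right of 0, while those of Brca1 lie on either side of it.

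The Fanconi core complex split evenly, with 4 members higher and 4 lower and a median of 0.06. Fancb (probe set 1437780_at), an X-linked core subunit that stabilises the ligase module, had the largest difference of all members, with 7.60 on the KO-labelled array, against 6.93 on the WT-labelled array, or 1.59-fold. Its second expressed probe set differed by 0.08, so the 2 sets disagreed by 0.59, more than any other member's 2 brightest sets. With the mean of its sets Fancb stood at 0.37. Fancl, the catalytic ubiquitin ligase subunit, had 10.59 on the KO-labelled array, against 10.60 on the WT-labelled array. Fancg differed by 0.21, and by 0.03 with its other expressed set, which was about as bright. Fanca differed by 0.14 and Fancm, the translocase that anchors the complex to DNA, by 0.12 (-0.05 with its other expressed set). Fance, which bridges the core to FANCD2, was the lowest of all members at -0.14 (7.92 KO-labelled, 8.06 WT-labelled), though its other set was at 0.01. Fancc and Fancf, both core subunits, each stood at -0.05, and their other expressed sets were higher, so their direction depended on the probe set. Apart from Fancb, no core gene differed by 0.25.

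The substrates of the core complex and the conjugating enzyme were all higher, with a median of 0.37. Ube2t (1422462_at) had 7.82 on the KO-labelled array, against 7.40 on the WT-labelled array, a difference of 0.42, and its dimmer set differed by 0.33. Fancd2 (1439091_at), which is ubiquitinated with FANCI on damaged chromatin, had 7.82 on the KO-labelled array, against 7.45 on the WT-labelled array, a difference of 0.37. Fanci was higher by less, with 8.35 on the KO-labelled array, against 8.17 on the WT-labelled array. Only 1 of the 4 sets of Fancd2 was expressed, and the rest ran from -0.14 to 0.11.

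Probe sets of the same member often disagreed. For the 13 members with several expressed sets, the 2 brightest were 0.17 apart in the median gene, against 0.08 over the 4906 genes. All sets were higher for 5 of them, all were lower for Mus81, and 7 had sets on either side of 0. Over all 49 expressed sets of the members 37 were higher, with a median of 0.13. The share over all expressed probe sets of the arrays was not computed, so this count has no background beside it. The size for a single gene depended on the set.

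Other genes of recombination and crosslink repair were mostly higher too, by less than the members in the median. Of 64 further pathway genes 62 were measured and 56 expressed. Of these 45, or 80.4%, were higher and 11 lower, with a median of 0.08, where 56.9% of all expressed genes were higher. A difference of 0.25 or more upward was reached by 9, or 16.1%, against 28.6% of the expressed members and 7.6% of all expressed genes. The gap between the medians nearly closed with the mean of the probe sets (members 0.12, other pathway genes 0.10). The highest were Hells (0.57), a chromatin remodeller, Fignl1 (0.48), an ATPase of recombination, the helicase gene Recql (0.37) and Exo1 (0.36), the nuclease of long-range resection. Exo1 had 8.00 on the KO-labelled array, against 7.64 on the WT-labelled array. The lowest were Faap100 (-0.11), a core complex subunit, the cohesin-like gene Smc5 (-0.09), the nuclease subunit gene Ercc1 (-0.09) and Abraxas1 (-0.08), the scaffold of the BRCA1-A complex. Smc5 and Abraxas1 each had another expressed set that was higher, by 0.21 and 0.19. With the sets used, the damage kinase genes differed unequally, Atm by 0.35 (11.11 KO-labelled, 10.76 WT-labelled) and Atr by 0.04. Other expressed sets lay closer together, with 0.28 for Atm and up to 0.22 for Atr.

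**Figure D3:**
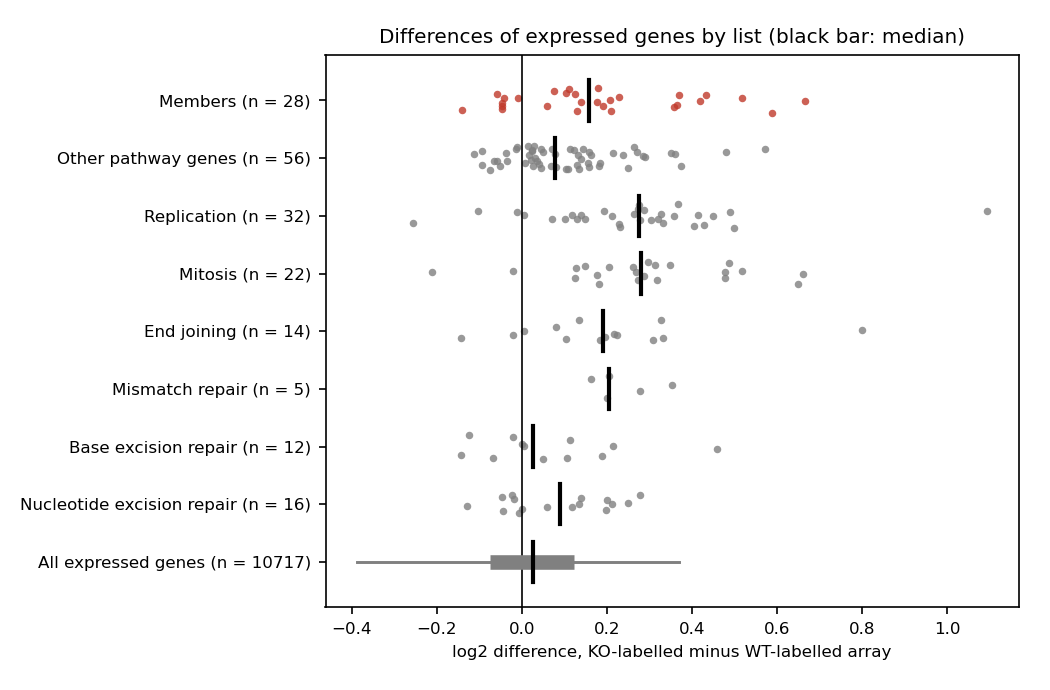
Log2 difference of expressed genes in the members (red) and in the comparison lists (grey points), with medians as black bars. For all expressed genes the thin line spans the central 95%, from -0.39 to 0.37, and the thick line the central 50%. The member median (0.16) lies below those of replication (0.27), mitosis (0.28), mismatch repair (0.20) and end joining (0.19). It lies above those of nucleotide (0.09) and base excision repair (0.03) and of the other pathway genes (0.08).

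Lists of cell division, and by less those of end joining and mismatch repair, had larger median differences than the members on the same arrays. Those of base and nucleotide excision repair had smaller ones. DNA replication genes had a median of 0.27, from Cdt1 (-0.26), a licensing factor, to Cdc6 (1.09), another. Of these 18 of 32 were higher by 0.25 or more, where 7.6% of all expressed genes were. Mitotic genes had a median of 0.28, from the kinesin gene Kif2c (-0.21, and 0.14 with its other set) to the spindle kinesin gene Kif11 (0.66). Of these 14 of 22, or 63.6%, were higher by 0.25 or more, against the same 7.6%. Genes of the cell cycle thus differed in the same direction as the members, and their part in the result was not tested. End joining genes had a median of 0.19 over 14 genes, from Xrcc4 (-0.14, and 0.02 with its other set), a ligase cofactor, to Xrcc5 (0.80), the Ku80 subunit. With plain sets their median was 0.18, against 0.19 for the members. Mismatch repair genes had 0.20 over 5, from Pms1 (0.16) to Msh6 (0.35). Base excision genes had 0.03 over 12, from the glycosylase gene Mutyh (-0.14) to Ung (0.46), the uracil glycosylase. Nucleotide excision genes had 0.09 over 16, from Rad23b (-0.13, with other sets up to 0.24) to Xpa (0.28). Differences between these lists were not tested.

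**Figure D4:**
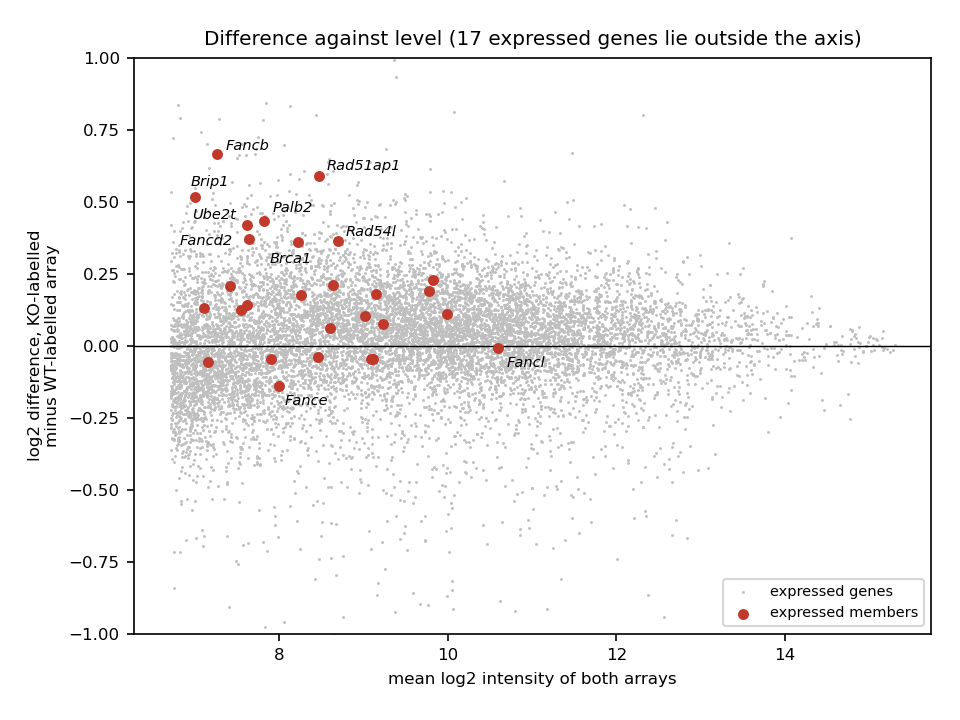
Log2 difference against the mean log2 level of both arrays for 10717 expressed genes (grey) and the 28 expressed members (red), where 17 genes lie beyond the axis limits. The members with the largest differences, such as Fancb (0.67), Rad51ap1 (0.59) and Brip1 (0.52), lie in the left part, at mean levels under 9.

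The larger differences among members were mostly read from dimmer probe sets. Over the 28 expressed members Pearson's r between mean level and difference was -0.32, and over all expressed genes it was 0.06. The points share both arrays, so these are descriptions. Of the 14 members at lower mean levels (6.99 to 8.26) 6 were higher by 0.25 or more, and of the 14 at higher levels (8.46 to 10.59) 2 were. Among all expressed genes within the level range of the members 9.2% were. The share of all genes in the lower and the higher range apart was not computed. Markers of macrophages and monocytes were mostly lower. Of 8 expressed macrophage and monocyte markers 2 were higher, with a median of -0.22 and a mean log2 level over 11 measured markers of 6.71 on the KO-labelled array, against 6.90 on the WT-labelled array. Over 4 expressed dendritic cell markers the median was -0.29, and 3 of them were lower by 0.25 or more and 1 was higher by that much. Of all expressed genes 6.4% were lower and 7.6% higher by that much. T cell markers had a median of 0.14 over 6 expressed markers, with 4 higher. Of these 2 were higher by 0.5 or more, where 0.681% of all expressed genes were. B cell markers had a median of 0.15, with 14 of 16 higher. Beside these marker counts, 56.9% of all expressed genes were higher. The part of these shifts in the member differences was not tested, and in RNA of whole cultures fewer cycling cells and less RNA per cycling cell cannot be told apart.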

How the data were processed

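RNA was extracted with Trizol and labelled with an Affymetrix 3′ IVT kit, per the labels' protocols, and read on 2 arrays. The authors deposited log2 intensities of 45101 probe sets, and the values themselves (3.09 to 15.4) show the log2 scale. How the authors summarised and normalized them is not given in the sources used here. After sorting, the arrays were never more than 0.063 apart, so they had been scaled to nearly 1 distribution and a difference in RNA per cell would not show.

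Probe sets were named from the platform annotation: 34945 name a single gene, 932 several and 9160 none, and 64 are controls. Differences are KO-labelled minus WT-labelled, with no test, since 1 array per label gives no spread, and the precision is limited by this number of arrays. The members, lists, motifs and sizes were chosen with earlier results of these data known. Named genes are all measured members, the 4 highest and 4 lowest other pathway genes with Atm and Atr, the highest and lowest of each comparison list, and Mir155hg. The list summaries were checked on simulated data in which all probe sets of the members were shifted alike. That check covers the calculation and not the disagreement between probe sets. The 6 alternatives are the mean over the probe sets of each gene, plain _at sets only, quantile normalization, a loess curve (span 0.3) subtracted, no level filter, and a stricter one at the 75th percentile. The loess curve came from statsmodels 0.14.6 and all else from pandas 2.3.3 under Python 3.11.15.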

Additional observations from a re-analysis of the deposited data

How the results depend on the processing

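The member median stayed above 0 under all 6 alternatives, between 0.10 and 0.19. Quantile normalization and loess subtraction left 21 of 28 members higher while the share of all expressed genes that were higher became 49.2% and 47.4%. With the filter at the 75th percentile only 9 members were left, of which 6 were higher and 0 reached 0.25, where 62.7% and 6.25% of all genes passing that filter did. The share of higher members was then close to the background. The medians then were 0.10 for the BRCA mediators (Brca2 alone), -0.029 for the Fanconi core, -0.046 for the nucleases (Mus81 alone) and 0 for nucleotide excision repair. With the mean of the probe sets the BRCA mediators had 0.27. The ID complex and its E2, at 0.31 (Fanci and Ube2t, without Fancd2), then had the larger median, as they also had without a filter (0.37 against 0.36). With plain sets the nucleases had 0.13 (Eme1 alone). Of the 28 members 23 kept their direction under every alternative that measured them and did not filter them out. Fancc, Fancf, Rad51d, Rmi1 and Xrcc3, all within 0.08 of 0, did not. The level filters keep or drop a gene and leave its difference as it was, so they could not change a direction. For members with a single probe set the probe set alternatives could not either. Fancd2, Fancm and Rad54l fell below the level for expression with the mean of the probe sets, so their direction there was not counted. For Fancm the 3 sets differed by 0.12, -0.05 and -0.29. The member median came near that of the other pathway genes with the mean of the probe sets (0.12 against 0.10) and with the filter at the 75th percentile (0.105 against 0.104). The base excision median ran from -0.02 to 0.08. No paired analysis was possible because each label has 1 array, and for the same reason no array could be left out. Signal near the level for expression limits Brip1, Eme1 and Xrcc3.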
